A study of Mus musculus with 312 samples.

Results

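The small leucine-rich proteoglycans are secreted matrix proteins, and 7 of them (Prelp, Dcn, Lum, Bgn, Fmod, Ogn and Aspn) were followed here among 25136 genes counted in single mammary basal cells. The 7 genes were chosen by name with their measured values in these same cells already known, so their levels and the differences between groups below are descriptions and carry no test. All 7 were present in the counts, matched by the symbol of their Entrez gene ID. In this family, a short protein core of leucine-rich repeats carries glycosaminoglycan chains in some members and few or none in others. The proteins sit on collagen fibrils, whose width and spacing they set, and several of them also bind growth factors such as TGF-beta. Fibroblasts are the textbook source of decorin and lumican in the mammary gland, whereas basal (myoepithelial) cells are the contractile outer layer of the ducts and lie against the basement membrane.

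Cells came from FVB/NJ mice and were all labelled as basal. Of 312 cells, 237 came from adult glands and 75 from pregnant glands. Each was captured on a Fluidigm C1 chip, where one chamber gives one cDNA library. Titles of 112 adult cells carry the mark (2), which the labels do not explain, and 125 adult titles do not; both title sets are used to show how far adult cells differ among themselves. The labels give no treatment, day of pregnancy or animal. The study's methods sorted adult basal cells as lineage-negative, CD29-high and CD24-positive. This gate is meant to remove blood and endothelial cells and, through CD24, to select epithelium, though a few retained cells carried genes of other cell types (below). The methods describe total epithelium at mid-pregnancy, so the basal identity of the pregnancy cells rests on their labels and on the markers below. All pregnancy titles share one form, so stage, animal and capture run cannot be told apart, and each group counts as 1 sample with no replicate check.

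A cell was retained with at least 50000 reads in genes that are neither mitochondrial nor ribosomal protein genes and with at least 1000 genes detected. This kept 81 of 112 marked adult cells, 58 of 125 unmarked adult cells and 71 of 75 pregnancy cells. Retained cells held 51464 to 405910 such reads, with medians of 174910 (marked), 101320.5 (unmarked) and 230645 (pregnancy). The median mitochondrial share of reads was 9.65%, 15.6% and 18.4% in the same order. At least 6 of 11 core basal genes, among them Krt14, Acta2 and Trp63, reached 100 CPM, which is reads scaled to 1000000 per cell, in 76, 51 and 70 cells of these groups. Krt14 alone did so in 78, 51 and 70 cells, Krt5 in 60, 33 and 46, and Trp63 in 15, 11 and 36. The list also holds the contractile genes Acta2, Mylk, Myh11, Myl9, Cnn1 and Tagln. A cell could therefore meet the requirement without a keratin or Trp63. Intervals below are exact 95% intervals that cover counting error only.

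Prelp and Fmod lie next to each other on chromosome 1, with 107 kb and no other protein-coding gene between them (GRCm38.p6), yet Prelp was lower and Fmod higher in pregnancy cells. Their promoter sequences are shown for that reason. Each line gives the 250 bases before the RefSeq start site, 5′ to 3′ on the strand of the gene. Capitals mark a match to any of 6 short motifs searched on both strands, which were the TATA box spelled TATAAA, the CCAAT box, the GC box spelled GGGCGG, the AP-1 motif spelled TGANTCA, the STAT motif spelled TTCNNNGAA and the E-box spelled CACGTG; none contains another.
Prelp, minus strand, chr1:133921402-133921651: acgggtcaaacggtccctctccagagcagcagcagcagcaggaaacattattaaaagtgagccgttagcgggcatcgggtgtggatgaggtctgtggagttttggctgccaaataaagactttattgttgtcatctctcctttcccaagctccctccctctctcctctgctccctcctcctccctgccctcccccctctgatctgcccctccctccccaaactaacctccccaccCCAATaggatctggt
Fmod, plus strand, chr1:134037004-134037253: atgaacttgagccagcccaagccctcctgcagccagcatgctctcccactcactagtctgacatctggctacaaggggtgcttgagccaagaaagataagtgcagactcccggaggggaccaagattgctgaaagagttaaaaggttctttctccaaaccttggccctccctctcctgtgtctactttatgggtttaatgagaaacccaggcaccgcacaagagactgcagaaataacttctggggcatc
The Prelp window held 1 match, a CCAAT box, and the Fmod window held none. Of 32851 RefSeq promoter windows of this length, 33.9% held a CCAAT box, 12.4% a TATA box, 32.7% a GC box, 6.75% an AP-1 motif, 7.02% a STAT motif and 6.02% the E-box. A match is a description of the letters and not a site, and no match says only that these letters are not in the window. Their GC content was 55.6% (Prelp) and 51.2% (Fmod), against a median of 52.4% over all windows. The start used for Prelp lies 8.70 kb inside its RefSeq gene span, so a longer transcript begins upstream, and the last 13 bases of its window fall in the first exon of GENCODE transcripts. Windows were also held for Bgn, Ogn and Aspn, which makes 5 of the 7 genes.

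The first question was what each gene did from adult to pregnancy. Prelp was the member found in most adult cells, whereas nearly every pregnancy cell carried Dcn and most carried Fmod. Bgn was found in a like share of cells at both stages. Ogn, Lum and Aspn were confined to a few cells in each group. A level of 100 CPM was taken as detection.

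**Figure D1:**
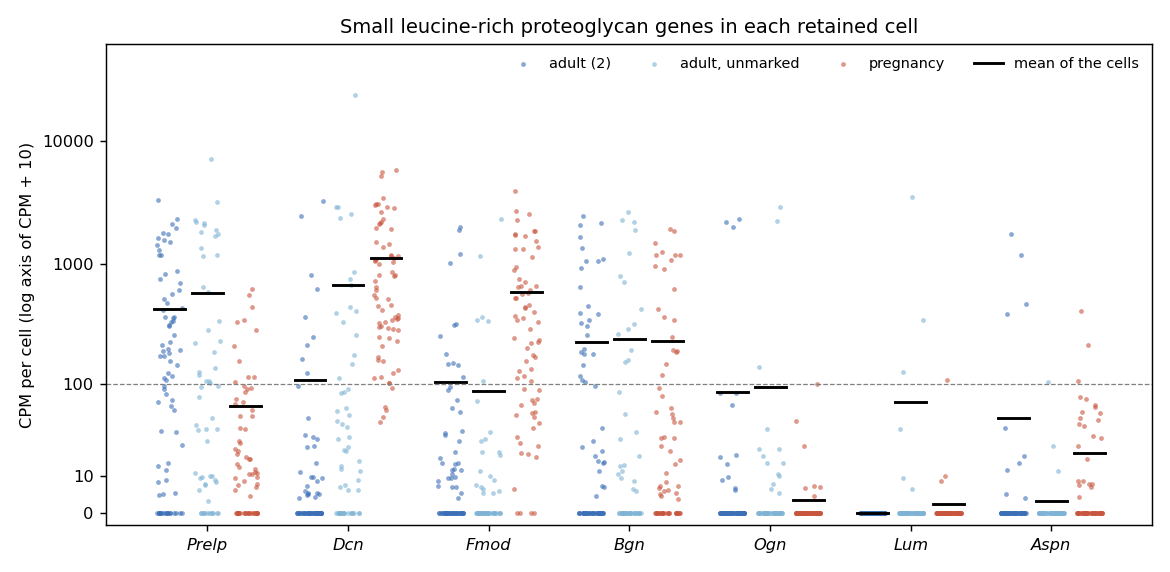
CPM of the 7 genes in each retained cell on a log axis of CPM + 10, for marked adult cells (adult (2)), unmarked adult cells and pregnancy cells. Black bars are means over cells and the dashed line is 100 CPM; Dcn lies above 100 CPM in 66 of 71 pregnancy cells, and Lum in 4 cells in all.

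Prelp, which encodes prolargin, a heparin-binding member thought to anchor basement membranes to the underlying matrix, was found in 71 of 139 adult cells. Marked cells reached 100 CPM in 45 of 81 cases (55.6%, interval 44.1 to 66.6%) and unmarked ones in 26 of 58 (44.8%, interval 31.7 to 58.5%). In pregnancy it did so in 11 of 71 cells (15.5%, interval 8.00 to 26.0%). The pregnancy interval lies below both adult intervals, and the 2 adult sets overlap each other. Prelp ranged from 0 to 3308 CPM in marked cells (median 145), from 0 to 7126 CPM in unmarked cells (median 61.6) and from 0 to 629 CPM in pregnancy cells (median 10.9). The ranges overlap, and the difference lies in how many cells are high: 35 adult cells but 2 pregnancy cells passed 500 CPM. Mean Prelp was 431, 581 and 62.2 CPM in the 3 groups, which is a log2 ratio of −2.80 for pregnancy over adult, −2.61 over the marked set and −3.03 over the unmarked set. Low levels persisted in pregnancy, since 33 of 71 cells (46.5%, interval 34.6 to 58.7%) still held a Prelp read after thinning to 50000 reads, against 72.8% and 65.5% in the adult sets. At this looser level the pregnancy interval overlaps that of the unmarked set (51.9 to 77.5%).

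Dcn encodes decorin, which carries 1 glycosaminoglycan chain, binds collagen fibrils and can hold TGF-beta. Its pattern ran the other way. Among adult cells 9 of 81 marked (11.1%, interval 5.21 to 20.1%) and 16 of 58 unmarked ones (27.6%, interval 16.7 to 40.9%) reached 100 CPM. Among pregnancy cells 66 of 71 did (93.0%, interval 84.3 to 97.7%), with an interval above both adult ones, which overlap. After thinning, every one of the 71 pregnancy cells had a Dcn read, against 22 marked and 31 unmarked cells. In marked cells Dcn ran from 0 to 3258 CPM with a median of 0, in unmarked cells from 0 to 23194 CPM with a median of 21.7, and in pregnancy cells from 44.4 to 5766 CPM with a median of 555. The highest Dcn cell of the series was therefore an adult one, unmarked cell 157, which alone held 59.1% of the summed Dcn level of its set. Mean Dcn was 107, 677 and 1113 CPM, and the unmarked mean was 282 CPM without cell 157. The log2 ratio of pregnancy over adult was 1.66. Against the marked set it was 3.27, but against the unmarked set only 0.71, which became 1.94 with cell 157 left out.

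Fmod encodes fibromodulin, a keratan sulphate proteoglycan that binds collagen type I. Like Dcn it was detected in more cells in pregnancy. It reached 100 CPM in 12 marked cells (14.8%, interval 7.90 to 24.5%), 6 unmarked cells (10.3%, interval 3.89 to 21.2%) and 48 pregnancy cells (67.6%, interval 55.5 to 78.2%). The pregnancy interval again lies above both. Fmod ran from 0 to 1994 CPM in marked cells and from 0 to 2329 CPM in unmarked cells with medians of 0, and from 0 to 3920 CPM in pregnancy cells with a median of 245. Its mean was 104, 85.1 and 588 CPM, and the log2 ratio over adult was 2.49, with 2.39 against marked and 2.65 against unmarked cells. Cell 225 alone gave 47.2% of the unmarked mean, and without that cell the ratio over the unmarked set was 3.42.

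Bgn encodes biglycan, the closest relative of decorin, with a pair of glycosaminoglycan chains and a known role as a ligand of Toll-like receptors. It did not separate the stages. Bgn reached 100 CPM in 25 marked cells (30.9%, interval 21.1 to 42.1%), 14 unmarked cells (24.1%, interval 13.9 to 37.2%) and 20 pregnancy cells (28.2%, interval 18.1 to 40.1%). Its mean was 229, 240 and 234 CPM, a log2 ratio of 0.00 over adult. In each group it was spread unevenly, from 0 in many cells to 2443 CPM in a marked cell, 2670 CPM in an unmarked cell and 1919 CPM in a pregnancy cell.

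**Figure D2:**
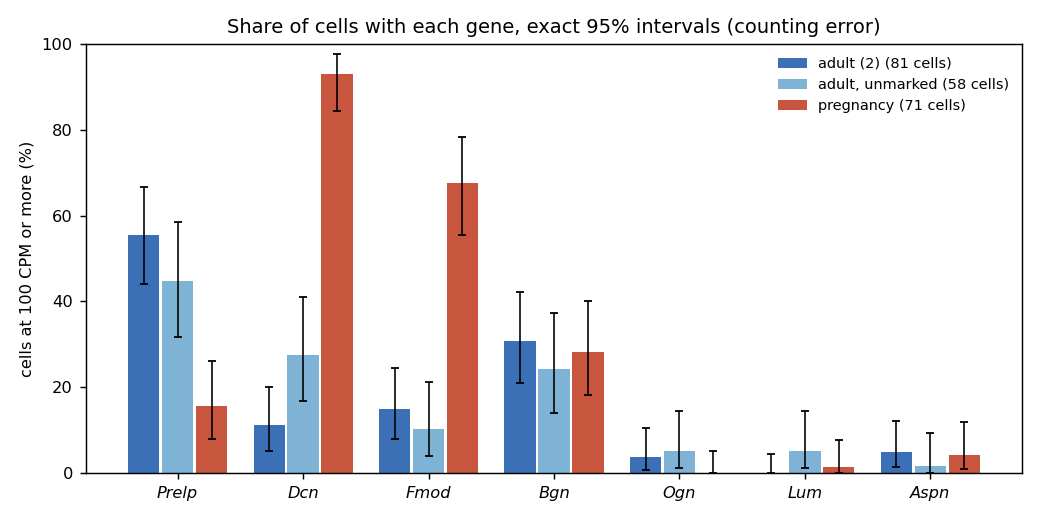
Percent of retained cells with each gene at 100 CPM or more, for 81 marked adult, 58 unmarked adult and 71 pregnancy cells. Error bars are exact 95% intervals (counting error); those of pregnancy stand apart from both adult sets for Prelp (lower), Dcn and Fmod (higher).

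Ogn encodes osteoglycin (mimecan). It was rare but high where present. It reached 100 CPM in 3 marked cells, at 2328, 2206 and 2001 CPM, and in 3 unmarked cells, at 2918, 2238 and 139 CPM. In pregnancy 0 of 71 cells reached it, which allows a share of up to 4.23% by a limit of 3 counts (exact upper bound 5.06%), and the highest pregnancy value was 99.1 CPM. Its mean of 84.5, 94.2 and 2.68 CPM and its log2 ratio of −2.96 thus rest on 5 adult cells. Of these, marked cells 5, 87 and 88 and unmarked cell 196 carried 9 or 10 core basal genes, and unmarked cell 151 carried 8.

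Aspn encodes asporin, a member without chains that binds collagen. It was similarly scattered. It passed 100 CPM in 4 marked cells (1772, 1189, 472 and 388 CPM), in 1 unmarked cell (104 CPM) and in 3 pregnancy cells (415, 216 and 106 CPM). Its log2 ratio over adult was −0.37, and its direction depends on the title set, at −0.94 over marked and 1.29 over unmarked cells. With 1 read after thinning it was found in 18 of 71 pregnancy cells (25.4%, interval 15.8 to 37.1%). Marked cells held one in 5 of 81 cases (6.17%, interval 2.03 to 13.8%), as did 2 of 58 unmarked ones (3.45%, interval 0.420 to 11.9%). Low Aspn was therefore found in a larger share of pregnancy cells than of either adult set, with intervals that do not overlap at this level. At 100 CPM the Aspn intervals do overlap. The share of all genes with intervals apart after thinning was not computed, so nothing is read from this separation. The 2 cells above 500 CPM were both marked adult cells.

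Of the 7 genes, 5 passed the filter of 50 mean CPM at one stage or the other, and Lum and Aspn did not. Ogn passed through its adult mean alone. Among these 5, Dcn and Fmod were at least 2-fold higher in pregnancy, a size that 15.6% of 4548 genes reached, and Prelp and Ogn were at least 2-fold lower, as were 13.5% of genes. Measured against both adult sets, only Fmod stayed 2-fold higher (10.1% of genes), while Prelp and Ogn stayed 2-fold lower (6.02% of genes). By share of cells, Dcn and Fmod had intervals above both adult sets, as 5.26% of genes did, and Prelp had an interval below both, as 0.462% did. Because the genes were chosen with this contrast in view, nothing is read from these counts. In the order of ratios over the 4548 genes, Fmod stood 71st and Dcn 263rd from the highest, and Ogn stood 35th and Prelp 51st from the lowest. The median log2 ratio of all genes was 0.05, and it moved to 0.30 with TMMwsp factors, under which Prelp was at −2.33, Dcn at 1.40, Fmod at 2.93 and Bgn at 0.38.

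**Figure D3:**
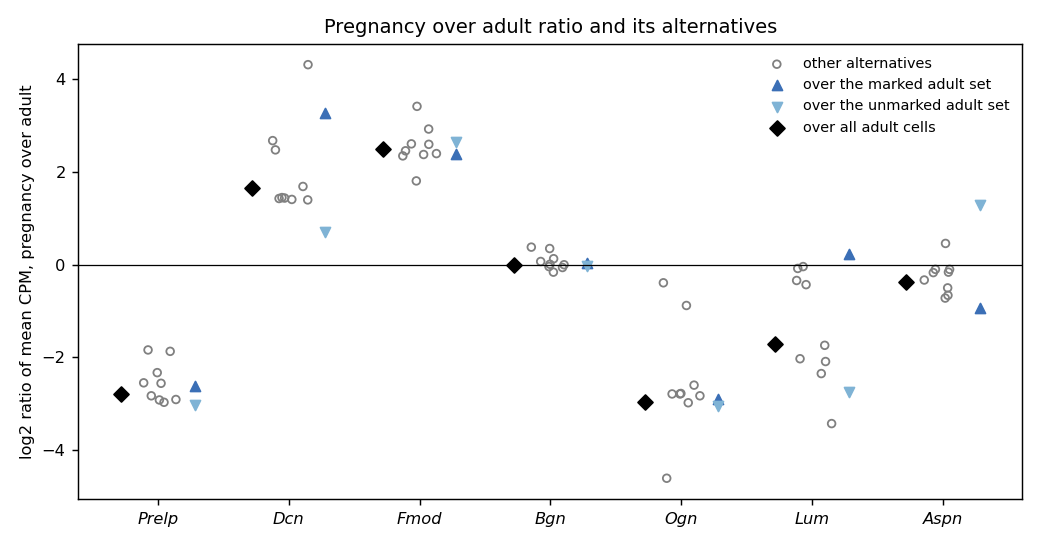
Log2 ratio of mean CPM, pregnancy over adult, for the 7 genes. Diamonds use all adult cells, triangles each title set and circles the other alternatives (pseudocount, filter, scaling, cells left out); Prelp stays below 0 and Fmod above 0 in all of them, while Lum and Aspn lie on both sides.

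Within adult cells, the title sets also differed. Unmarked cells had a log2 ratio of 2.56 over marked cells for Dcn, 0.42 for Prelp, 0.06 for Bgn, 0.14 for Ogn and −0.26 for Fmod. Lum had a ratio of 2.98, on no read in the marked set, and Aspn one of −2.23. Between these sets 18.9% of 4578 genes were at least 2-fold higher and 16.7% at least 2-fold lower, so differences of this size were common within one stage. Without the highest cell of each set, the ratio was 1.92 for Dcn and 0.94 for Lum. The genes of an adipocyte list had a summed level with a median of 45.4 CPM in unmarked cells (range 0 to 70898). It was 0 in marked cells (range 0 to 15414) and 49.6 CPM in pregnancy cells (range 0 to 1837). Only Fabp4 and Cd36 of this list averaged 50 CPM or more at one stage or the other. At least 3 of the 8 listed genes were detected in 2, 1 and 1 cells. Their part in the Dcn difference was not tested.

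The order of the members also differed between groups. Per kilobase of exon (RPKM), Prelp had the highest mean in marked cells, at 120, followed by Bgn at 95.8, Dcn at 51.2, Fmod at 36.4, Ogn at 33.3 and Aspn at 20.5. In unmarked cells the order was Dcn 325, Prelp 161, Bgn 100, Ogn 37.1, Lum 33.2, Fmod 29.8 and Aspn 1.03, with Dcn and Lum resting on cell 157. In pregnancy it was Dcn 534, Fmod 206, Bgn 98.0, Prelp 17.3, Aspn 8.65, Ogn 1.06 and Lum 0.848. Decorin thus made up 61.7% of the summed RPKM of the 7 genes in pregnancy, 14.4% in marked and 47.2% in unmarked adult cells, and Prelp 1.99%, 33.6% and 23.5%. With 1 sample per group, neighbours in these orders were not tested against each other.

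Prelp was also set against the sum of Dcn and Fmod in each cell. The genes were combined by group differences already known. The counts therefore restate those differences and add no support to them. The summed RPKM of Dcn and Fmod exceeded that of Prelp in 69 of 71 pregnancy cells (97.2%, interval 90.2 to 99.7%). The same held for 21 of 81 marked (25.9%, interval 16.8 to 36.9%) and 29 of 58 unmarked adult cells (50%, interval 36.6 to 63.4%). Prelp was the higher in 2, 51 and 27 cells of these groups. The median pregnancy cell had 609 RPKM of Dcn and Fmod and 3.03 RPKM of Prelp.

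**Figure D4:**
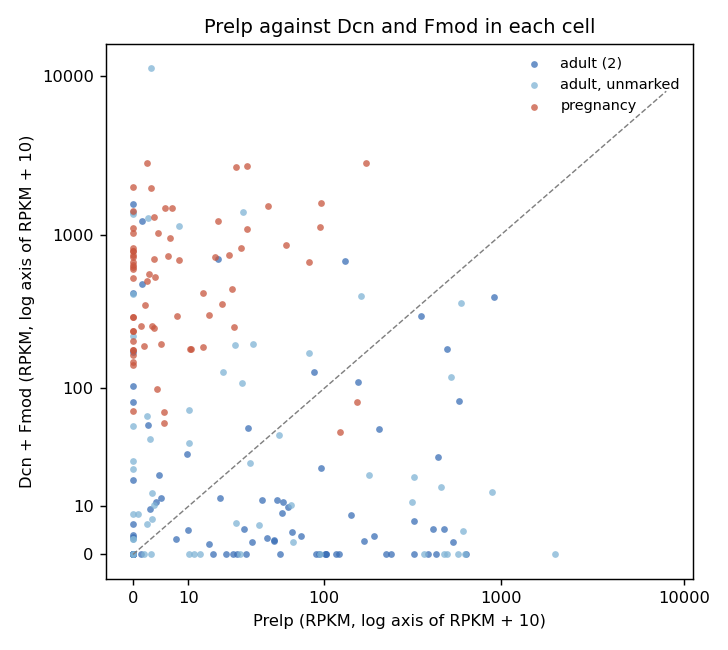
Prelp (x axis) against the sum of Dcn and Fmod (y axis) in each retained cell, both in RPKM on log axes of RPKM + 10. Points above the dashed line of equal level are 69 of 71 pregnancy cells, 21 of 81 marked and 29 of 58 unmarked adult cells.

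Within a group the correlations between members across cells were mostly weak. Dcn and Fmod were both at 100 CPM in 44 pregnancy cells, and their Spearman correlation over those 71 cells was 0.01, against 0.22 in marked and 0.30 in unmarked cells, where 3 cells of each set had both. In unmarked cells Dcn also had a correlation of 0.34 with Lum, 0.31 with Bgn and 0.27 with Ogn. Prelp and Dcn had a correlation of −0.03 in marked, −0.27 in unmarked and 0.15 in pregnancy cells. For Prelp and Fmod it was 0.08, −0.01 and 0.10 in the same order. One pair stood out in marked cells, where Prelp and Bgn were found together in 21 cells with a correlation of 0.41, but it was −0.12 in unmarked and 0.28 in pregnancy cells. Correlations across cells share the library and its depth and are given as descriptions. Depth itself was weakly related to the main members. Correlations with assigned reads in marked, unmarked and pregnancy cells were 0.04, −0.20 and 0.21 for Prelp and 0.08, 0.09 and 0.00 for Dcn. For Fmod they were −0.01, 0.26 and 0.02. Prelp was correlated with the number of core basal genes in the cell, at 0.44 in marked, 0.26 in unmarked and 0.05 in pregnancy cells. Of 82 cells with Prelp, 81 carried at least 6 core basal genes, as did 127 of 139 retained adult and 70 of 71 pregnancy cells. The same held for 88 of 91 cells with Dcn, 58 of 59 with Bgn and 66 of 66 with Fmod.

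In adult cells, 101 of 139 had at least 1 of the 7 genes at 100 CPM and 48 had at least 2. All 71 pregnancy cells had at least 1, and 54 had at least 2. No cell had all 7. The highest number was 6, in unmarked cell 155.

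The second question was whether the members marked cells with a broad set of stromal genes or stood alone in basal cells. A list of 12 fibroblast genes that excludes this family was used, among them the fibrillar collagens Col1a1, Col1a2 and Col3a1, the matrix gene Dpt and the receptor gene Pdgfra. A cell was called broadly stromal with at least 3 of the 12 at 100 CPM. This held for 1 marked, 5 unmarked and 4 pregnancy cells. The study lists 2 of the 12, Fbn1 and Fbln1, among its basal lineage genes, so these do not tell fibroblasts from basal cells. Marked cell 39 and unmarked cell 234 met the requirement on Fbn1, Fbln1 and Mmp2 alone. They carried 9 and 10 core basal genes and no read of Col1a1, Col1a2, Col3a1 or Dpt. Fbn1 (34.3% of cells) and Mmp2 (30.5%) were common among all retained cells. Without Fbn1 and Mmp2, 3 unmarked cells (151, 155 and 157) and 2 pregnancy cells (44 and 62) remained. The requirement was met exactly by 5 cells and missed by 1 gene in 33 cells. Median Dcn was 397 CPM in the former and 365 CPM in the latter, and Lum was 0 in all cells of both kinds.

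Lum encodes lumican, a keratan sulphate member that limits collagen fibril width, and it was the one member found at 100 CPM in broadly stromal cells alone. It reached that level in 4 cells, unmarked cells 157 (3474 CPM), 151 (345 CPM) and 155 (128 CPM) and pregnancy cell 62 (107 CPM), and these held 8, 7, 4 and 5 fibroblast genes. No retained marked adult cell had a Lum read, which allows a share of up to 3.70% of cells by the limit of 3 counts (exact upper bound 4.45%). The remaining reads were few, and broadly stromal cells held 99.3% of all Lum reads. Not every broadly stromal cell had Lum. Unmarked cell 126, with 1720 CPM of Col1a2, 737 CPM of Col3a1 and 1 core basal gene, had no Lum read. Its Dcn was 51.2 CPM, and it reached 100 CPM for none of the members. Cell 157 carried no core basal gene, as 1 other retained cell did (unmarked cell 130, with no fibroblast gene), and it held 23194 CPM of Dcn and 2280 CPM of Bgn beside Lum, with only 9.08 CPM of Prelp and 4.54 CPM of Fmod. Cells 151, 155 and 62 in contrast carried 8, 10 and 10 core basal genes beside the stromal ones. Their Lum values rest on 39, 11 and 14 reads. Their mitochondrial share of reads was 23.0%, 35.0% and 54.3%, against medians of 15.6% in unmarked and 18.4% in pregnancy cells. Cell 155 also carried 3 of the 8 adipocyte genes. The study states that each capture site was inspected by eye for a single cell before sequencing, and no doublet caller was run here.

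**Figure D5:**
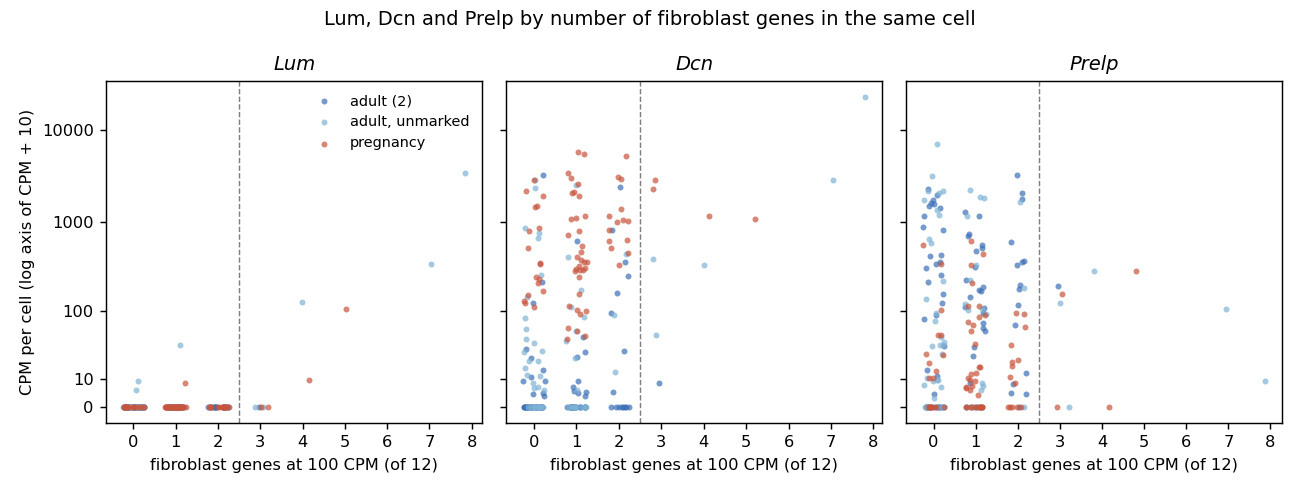
CPM of Lum, Dcn and Prelp (log axis of CPM + 10) against the number of 12 fibroblast genes at 100 CPM in the same cell, with points spread sideways. The dashed line separates broadly stromal cells (3 or more genes); Lum passes 100 CPM to the right of it only, while Dcn and Prelp do so on both sides.

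Of 91 cells with Dcn at 100 CPM, 8 were broadly stromal (8.79%, interval 3.87 to 16.6%), and of the 10 broadly stromal cells among 210 retained ones, 8 had Dcn. By reads the picture differed among groups and not by stage. Broadly stromal cells held 0.113% of the Dcn reads of marked cells, 76.7% of those of unmarked cells and 8.18% of those of pregnancy cells. Over all adult cells the share was 61.5%. The unmarked share rests largely on cell 157, which held 59.1% of the summed Dcn level of its set. In pregnancy 18 of the 66 Dcn cells carried none of the 12 fibroblast genes, 30 carried 1 and 14 carried 2. All 18 pregnancy cells without a fibroblast gene had Dcn at 100 CPM, from 113 to 2902 CPM. At the same time the median of Dcn was higher where more such genes were found, at 351 CPM with 0, 367 CPM with 1, 1022 CPM with 2 and 1730 CPM with 3 or more. These classes rest mostly on Fbn1 and Mmp2, which reached 100 CPM in 38 and 25 of the 71 pregnancy cells. No other gene of the 12 did so in more than 3. Whether the order holds without Fbn1 and Mmp2 was not tested. The 12 genes together had a median of 205 CPM in marked cells (range 0 to 6160), 114 CPM in unmarked cells (range 0 to 16054) and 578 CPM in pregnancy cells (range 0 to 5055), and Clec3b did not reach 100 CPM in any cell. In pregnancy Fbn1 and Mmp2 averaged 374 and 275 CPM, and the next highest gene, Pdgfra, 60.0 CPM. Without the broadly stromal cells, the log2 ratio of Dcn for pregnancy over adult was 2.68, compared with 1.66 with them.

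The collagens gave a further contrast between cells with Dcn. In cell 157, Dcn reads were 2.13 times the summed reads of Col1a1, Col1a2 and Col3a1. Broadly stromal cell 126 differed, with 51.2 CPM of Dcn below 1720 CPM of Col1a2 and 737 CPM of Col3a1. In the 67 pregnancy cells that were not broadly stromal, mean Dcn was 1069 CPM and the 3 collagens summed to 12.7 CPM, a ratio of 84.4, and 31 of these cells had no read of any of the 3. Adult cells that were not broadly stromal also had more Dcn than collagen. The ratio was 19.4 in marked cells (Dcn 108 CPM, collagens 5.57 CPM) and 28.5 in unmarked cells (234 and 8.21 CPM). Among them 69 of 80 marked and 41 of 53 unmarked cells had no read of the 3. The 3 collagens are among the 12 genes that set these cells apart, so a low sum there is partly fixed by the choice. Over the 66 pregnancy cells with Dcn, broadly stromal ones included, mean Dcn was 1193 CPM, the collagens summed to 34.5 CPM and the ratio was 34.5. Of these 66 cells, 29 had no read of the 3 collagens, 3 had a sum of at least 100 CPM and 65 carried at least 6 core basal genes.

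Of 82 cells with Prelp, 6 were broadly stromal, as were 5 of 59 with Bgn and 4 of 66 with Fmod, and 34, 25 and 15 carried no fibroblast gene. No adult cell with Fmod was broadly stromal. Of the 6 cells with Ogn, 2 were broadly stromal (151 and 155), and the other 4 carried at most 1 of the 12 genes. Aspn was found in 1 broadly stromal cell of 8. Marked cell 102, with 5 of 8 pericyte genes and 8 core basal genes, had 1879 CPM of Fmod, 1070 CPM of Bgn, 481 CPM of Prelp and 472 CPM of Aspn. Unmarked cell 135, with 4 of 8 endothelial genes and 8 core basal genes, had 410 CPM of Dcn. Marked cell 19, with 7 of 8 immune genes and 3 core basal genes, reached 100 CPM for none of the members. These cells stayed among the retained adult cells.

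Some members neighbour each other in the genome. In GRCm38.p6, Prelp spans chr1:133910304-133930102 on the minus strand and Fmod chr1:134037254-134048280 on the plus strand. The others are all on the plus strand, Dcn at chr10:97479500-97518163, Lum at chr10:97565501-97572703, Aspn at chr13:49544443-49567565, Ogn at chr13:49608015-49624501 and Bgn at chrX:73483601-73495936. Dcn and Lum lie 47.3 kb apart on chromosome 10 with no protein-coding gene between them, and all 4 cells with Lum at 100 CPM also had Dcn, whereas 4 of the 91 cells with Dcn had Lum. Aspn and Ogn lie on chromosome 13 on either side of Omd, inside the span of Cenpp but without a shared exon, and 1 cell (155) had both at 100 CPM. Optc, which encodes opticin, lies 0.615 kb from Prelp on the side away from Fmod. Its highest value was 826 CPM, in marked cell 93, and its highest in pregnancy was 118 CPM, in cell 29, and each was the cell with the highest Prelp of its group. Unmarked cell 231, with the highest Prelp of all at 7126 CPM, had no Optc read.

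Of 11 further genes of the family or of its clusters, none passed the filter of 50 mean CPM. Epyc, Kera and Podnl1 had no read in any retained cell. Chadl was the most frequent, at 100 CPM in 5 adult and 5 pregnancy cells, with means of 14.3 and 27.1 CPM. Omd and Tsku each reached 100 CPM in 1 pregnancy cell, at 270 and 424 CPM, and Ecm2 in 1 pregnancy cell at 108 CPM and 1 marked cell at 292 CPM.

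Enzymes that build and sulphate the chains of these proteins were mostly too low to compare. Of 26 such genes, 6 passed that filter, with a median log2 ratio of 0.84 against 0.05 for all genes. Chpf, Chst11, Chst15 and Dse passed through their pregnancy mean alone and Dsel through its adult mean alone. The filter itself thus fixes the sign of their ratios, and nothing is read from that median. Chst11 and Chst15, sulphotransferases of chondroitin sulphate, were at least 2-fold higher in pregnancy (1.12 and 1.76), and Dsel, a dermatan sulphate epimerase, was lower (−1.70). Against the unmarked set alone the ratio was 0.47 for Chst11 and −0.36 for Dsel, so neither difference held against both adult sets. The relative of Dsel, Dse, was at 0.79. Among 26 other proteoglycan core proteins, 11 were compared and had a median of 0.84. Versican (Vcan) averaged 285 CPM over adult and 1035 CPM over pregnancy cells, a ratio of 1.82, and Spock3 had a ratio of 3.74 on a pregnancy mean of 169 CPM. Syndecan-4 (Sdc4) was lower in pregnancy, at 13768 and 4862 CPM (−1.50). Of 19 known binding partners of the family, 9 were compared, with a median of −0.24. Tlr4 (2.07) and Met (1.15) were higher, the former on 1 pregnancy cell at 100 CPM, and Egfr (−1.09) was lower, but against the marked set alone Met was at 0.87 and Egfr at −0.91. Spock3, Tlr4 and Met also passed the filter through their pregnancy mean alone. The 2-fold shares over all genes given above apply to these lists too, and nothing was read from them as lists.

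Genes whose levels followed a member across cells were sought among 2653 genes, by the smaller of the Spearman correlations in the 81 marked and the 58 unmarked cells. For Prelp the first was Lmod1, which encodes leiomodin of smooth muscle, at 0.51 and 0.43, followed by Plpp3, Fhod3, Junb and Gas1 with a smaller value of 0.31 to 0.35. In the 71 pregnancy cells, which were not used to choose it, Lmod1 had a correlation of 0.17 with Prelp. Lmod1 averaged 204 CPM over adult and 243 CPM over pregnancy cells, so it did not share the lower level of Prelp in pregnancy. For Dcn the closest were Mfge8, Ppt1, Trf, Polr1c and Ccdc47, of which Mfge8, a milk fat globule protein, had 0.38 and 0.34 and, in pregnancy, 0.07. Those of Bgn were Timm8b, Cbx5, Eif5b, Trp53 and Slc66a2, and those of Fmod included Eno1, Dpm3, Phpt1 and Adm, with correlations of 0.26 to 0.39 in the adult sets and of −0.14 to 0.22 in pregnancy. In counts this sparse, correlations of this size are descriptions only.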

How the data were processed

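The authors deposited counts: for each cell, the whole number of read pairs on every Entrez gene, not normalized and without molecular identifiers. Per the labels and the study's methods, read pairs were mapped to mm10 with Subread 1.5.0 and assigned with featureCounts and the built-in RefSeq annotation; the strand setting was not given in the sources used here. Of 27179 IDs, 25275 matched a symbol in RefSeq for GRCm38; the other 1904 IDs (1.66% of reads), 15 mitochondrial and 124 ribosomal protein genes were left out. CPM is reads per 1000000 of the remaining 25136 genes, and RPKM is CPM per kilobase of exon. Cells were retained as the study relaxed its filter for these samples; no doublet caller was run. Each GEO sample is 1 cell and no animals are named, so no test or p-value was computed.

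Ratios are log2((mean CPM + 10)/(mean CPM + 10)), cells weighted equally, which understates low genes. Genes were compared where one group or the other averaged 50 CPM or more (4548, or 4578 within adult), and at least 2-fold counted as different. Shares have Clopper-Pearson and sums Poisson intervals. For 0 cells the limit is 3 counts. Cells were thinned once to 50000 reads. The members, lists and alternatives were chosen with earlier results of these data known. Named genes were the 7 members, the listed genes, and for members at 100 CPM in at least 10% of both adult sets the 5 genes most correlated in both, of which 1 is not reported here. TMMwsp factors came from edgeR 4.0.16 (R 4.3.3); other steps used Python 3.11.15, numpy 2.4.6, scipy 1.17.1 and pandas 2.3.3. The log2 ratio and the rank correlation were tested on simulated data, and thinning was not. Sequences are RefSeq, GRCm38.p6.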

Additional observations from a re-analysis of the deposited data

Results flagged for a closer look

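Cells that failed the filter on reads and genes were used in no comparison, but they too held reads of the 7 genes. The 31 marked adult cells left out had 371 reads of the members per 1000000 assigned reads, against 1004 in retained cells. The 67 unmarked adult cells had 481 against 2006, and the 4 pregnancy cells had 1303 against 2019. These values exceed the limit that a count of 0 allows, which was 6.63, 4.17 and 32.0 reads per 1000000. The order of genes in the left-out cells can be read from their sums. Prelp led in marked cells (175 reads per 1000000, interval 138 to 218) and Dcn in pregnancy cells (897, interval 716 to 1111), whereas in unmarked cells Dcn had 178 (interval 149 to 212) and Prelp 110 (interval 87.0 to 137). The left-out pregnancy cells had 224 reads of Prelp per 1000000 on 21 reads, against 68.0 in retained ones.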

How the results depend on the processing

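Over all alternatives, the ratios of the 7 genes, before the log2 was taken, changed by under 1.5-fold in 55 cases and by more in 21. In 1 case the log2 ratio changed sign from a value beyond 2-fold, namely Lum over the marked adult set (0.23 in place of −1.72). Prelp and Fmod kept their direction throughout. Prelp moved to −1.87 with a pseudocount of 100 CPM and to −1.84 as a mean of log2 values. Fmod moved to 1.81 and 3.42 under the same 2 settings. Dcn was 4.32 as a mean of log2 values, 2.48 without the highest cell of each stage, 2.68 without broadly stromal cells, 3.27 against marked cells alone and 0.71 against unmarked cells alone. As means of log2 values, the median of all genes was 0.38.

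Shares of cells moved with the level that counts as detected, in the order marked, unmarked and pregnancy. At 10 CPM they were 71.6%, 62.1% and 53.5% for Prelp, 22.2%, 58.6% and 100% for Dcn, and 37.0%, 24.1% and 93.0% for Fmod. At 500 CPM they were 24.7%, 25.9% and 2.82% for Prelp, 4.94%, 13.8% and 53.5% for Dcn, and 4.94%, 3.45% and 36.6% for Fmod. With 1 read after thinning they were 72.8%, 65.5% and 46.5% for Prelp, 27.2%, 53.5% and 100% for Dcn, and 33.3%, 27.6% and 88.7% for Fmod. With CPM over all reads, Dcn in pregnancy was 81.7%. At each level the pregnancy share was below both adult shares for Prelp and above both for Dcn and Fmod.

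The number of broadly stromal cells depended most on the settings. Requiring 2 of 12 genes gave 17, 8 and 18 cells, and requiring 4 gave 0, 3 and 2. At 10 CPM the counts were 12, 14 and 36, and at 500 CPM 0, 2 and 0. Without Fbn1 and Mmp2 they were 0, 3 and 2, and with at least 100000 reads and 1500 genes the unmarked count was 2. The share of Dcn cells that were broadly stromal was 30.8% with 2 of 12 genes and 42.3% at 10 CPM, and 5.49% without Fbn1 and Mmp2, an alternative chosen after seeing the data. Lum stayed at 100% under all 3. No paired analysis was possible because each group is 1 sample and the results come from no test. With 1 sample per group and counts without molecular identifiers, depth limits the shares near the detection level, and variation between animals cannot be estimated.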
